A study of Mus musculus with 12 samples.

Results

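The mRNA of 7 interferon regulatory factors, Irf1, Irf2, Irf3, Irf4, Irf5, Irf8 and Irf9, was followed in the mouse T lymphoma line EL-4 with Mouse Gene 1.0ST arrays from Affymetrix. The genes were chosen by name as 7 of the 19938 genes that have a probe set with 1 gene symbol. The rule that picks them uses names and no measured value, but the members were chosen with earlier results of these data known. They are not the whole family, and Irf7, which also has such a probe set, was not among them. The cells were first treated for 30 min with cycloheximide (CHX) at 10 μg/ml, an inhibitor of protein synthesis, or with DMSO, its solvent. Cells of each kind either received no stimulus (0 h) or were stimulated over 4 h with P/I, which is 10 ng/ml of the phorbol ester PMA together with 1 μM of ionomycin. This gave 4 groups of 3 biological replicates, 12 arrays in all: DMSO-treated cells, P/I-stimulated cells, CHX-treated cells and CHX-treated P/I-stimulated cells. PMA activates protein kinase C and ionomycin raises calcium, so P/I acts downstream of the T cell receptor without engaging it, in cells of 1 line. The sources used here do not give the full time that CHX was present on cells without stimulus, so a longer exposure to CHX and stimulation cannot be told apart where CHX-treated cells with and without P/I are compared.

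Interferon regulatory factors (IRFs) are transcription factors that share a DNA-binding domain which reads repeats of GAAA, the core of the interferon-stimulated response element. Irf3 and Irf5 are held in the cytoplasm until sensors of viral or bacterial molecules activate them, and Irf9 is the DNA-binding part of the complex that carries the type I interferon signal to the nucleus. Irf1 is an activator known for its induction by interferon γ, and Irf2 competes with it at many of the same sites. Irf4 and Irf8 are the lymphoid and myeloid members. They bind weakly alone and work with partners such as PU.1, Spi-B or Batf, and in T cells Irf4 is induced through the antigen receptor and is needed for the differentiation of effector cells.

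The DNA just before each gene's start is shown for the 4 members that between them carry all but 1 of the motif matches found, Irf4 and Irf8 because their mRNA rose with P/I and was lower with CHX, Irf1 and Irf2 because theirs was higher with CHX. Each sequence is the 250 bases before the first RefSeq start of the gene in mouse build GRCm38.p6, read from 5′ to 3′ on the + strand, at chr13:30748983-30749232 for Irf4, chr8:120736108-120736357 for Irf8, chr11:53769764-53770013 for Irf1 and chr8:46739495-46739744 for Irf2, which also lies in the gene Gm16675. Capitals mark matches to the letters searched.
Irf4: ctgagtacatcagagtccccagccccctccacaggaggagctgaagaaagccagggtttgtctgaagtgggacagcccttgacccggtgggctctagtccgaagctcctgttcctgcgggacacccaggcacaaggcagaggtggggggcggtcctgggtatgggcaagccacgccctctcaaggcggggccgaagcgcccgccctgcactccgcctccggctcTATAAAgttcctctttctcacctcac
Irf8: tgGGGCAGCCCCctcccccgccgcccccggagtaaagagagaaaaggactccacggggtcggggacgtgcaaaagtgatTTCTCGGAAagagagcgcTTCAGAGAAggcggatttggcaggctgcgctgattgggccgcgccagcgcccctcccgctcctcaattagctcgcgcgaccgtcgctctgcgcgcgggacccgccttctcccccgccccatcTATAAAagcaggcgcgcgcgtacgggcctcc
Irf1: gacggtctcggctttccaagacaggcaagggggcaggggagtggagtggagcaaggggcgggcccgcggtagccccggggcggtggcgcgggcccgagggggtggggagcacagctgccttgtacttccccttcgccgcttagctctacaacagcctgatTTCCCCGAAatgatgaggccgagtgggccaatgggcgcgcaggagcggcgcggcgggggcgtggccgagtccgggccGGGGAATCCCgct
Irf2: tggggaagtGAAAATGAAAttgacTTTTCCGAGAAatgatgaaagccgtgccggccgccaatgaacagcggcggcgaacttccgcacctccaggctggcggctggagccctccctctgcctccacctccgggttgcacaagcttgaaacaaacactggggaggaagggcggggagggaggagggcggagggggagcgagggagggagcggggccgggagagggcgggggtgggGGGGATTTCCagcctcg
The motifs were searched on both strands, TATAAA on the gene's strand alone. They were NF-κB sites (GGGA or GGGG, then any base, T, any 2 bases and CC, in 7.29% of 32841 promoter windows of the same length), GAS elements bound by STAT factors (TTCNNNGAA, 7.02%), the IRF element (GAAA repeated after any 2 bases, 2.98%), AP-1 sites (TGANTCA, 6.75%), NFAT cores (GGAAAA, 20.4%) and the TATA box TATAAA (7.59%). In Irf1 an NF-κB match, GGGGAATCCC, began 13 bases before the start and a GAS match, TTCCCCGAA, 90 bases before it. In Irf2 the NF-κB match GGGGATTTCC began 17 bases before the start, and the GAS match TTCCGAGAA at 224 bases shared letters with the NFAT match TTTTCC at 226. Irf2 was the only member with a match to the IRF element, GAAAATGAAA, at 241 bases.
Irf8 had an NF-κB match, GGGCAGCCCC, at 248 bases, GAS matches at 171 and 153 bases, and TATAAA at 31. Irf4 had TATAAA at 26 bases and no other match in this window. Of the other members, Irf9 held 1 NFAT match at 106 bases, while the windows of Irf3 and Irf5 held none of these letters. AP-1 letters were in no member's window. The 7 first-start windows had a GC content of 54.4% to 72%, against a median of 52.4% for all windows. These are matches of letters, and binding was not measured here.

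P/I raised the mRNA of Irf4, Irf8 and Irf3 in DMSO-treated cells, and 0 of the 7 members fell. Irf4 rose 21.5-fold, Irf8 2.23-fold and Irf3 1.89-fold, each with an adjusted p below 0.1 in limma, which is the threshold for every call given here. Of all 23410 probe sets tested, 17.5% were called in the same comparison, 9.05% higher and 8.42% lower. The count of 3 members called higher was also 3 with the methods' test with unmoderated variances, and at an unadjusted p under 0.05 it was 4 higher and 0 lower. Irf1 also passed in limma after quantile normalization of probe sets (adjusted p = 0.0663) or a filter at log2 5 (adjusted p = 0.0866). With a term for replicate number it passed too (adjusted p = 0.0678). The median log2 difference was 0.55 over the members and -0.03 over all probe sets. In bulk samples a higher level in each cell and more cells carrying the mRNA cannot be told apart.

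Addition of CHX before P/I split the members followed. The mRNA of Irf4 and Irf8 was lower with CHX and P/I than with P/I alone, and that of Irf1, Irf2, Irf3 and Irf9 was higher. That was 6 of 7 members called, 4 higher and 2 lower, where 25.3% of all probe sets were called, 13.2% higher and 12% lower. These shares over all probe sets depended on how the arrays were scaled: 3096 probe sets were higher and 2818 lower as deposited, 3751 and 2194 after centring each array on the median of all its probe sets, and 2516 and 3236 after centring on those tested. The members' own calls in this comparison were the same under each of these scalings. The log2 differences of the 7 members ranged from -3.53 for Irf4 to 2.09 for Irf9.

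**Figure D1:**
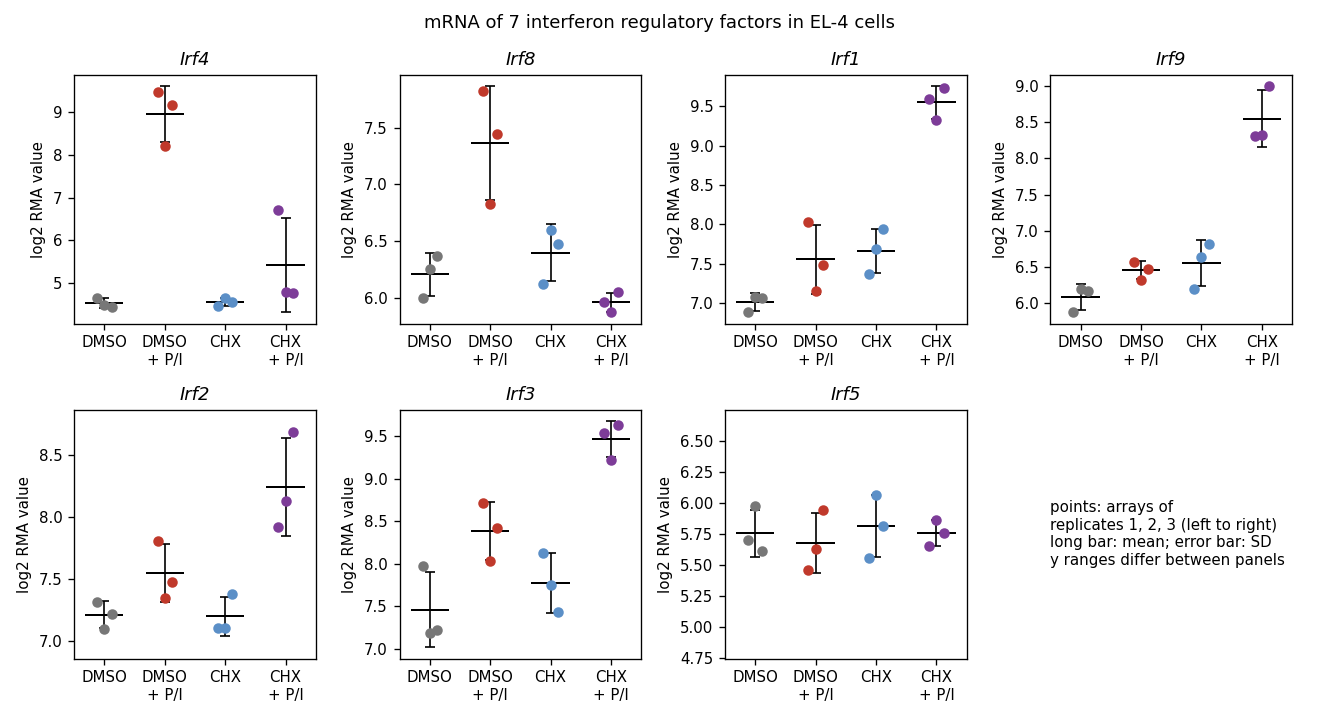
Log2 RMA value (y axis, with ranges that differ between panels) of each of the 7 members in the 4 groups (x axis); points are the arrays of replicates 1 to 3, long bars the means and error bars the SD. Irf4 and Irf8 are highest with P/I alone, Irf1, Irf9, Irf2 and Irf3 with CHX and P/I together, and the groups overlap for Irf5.

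Irf4, the member tied to antigen receptor signalling, had the largest response of the members followed. Its log2 RMA value, the array's summary of probe brightness, was 4.65, 4.50 and 4.43 in the DMSO-treated replicates 1, 2 and 3 and 9.47, 8.22 and 9.17 in the P/I-stimulated ones. It was 4.47, 4.66 and 4.56 in CHX-treated cells and 6.71, 4.79 and 4.78 in CHX-treated P/I-stimulated cells. All 3 P/I-stimulated arrays stood above the 9 others, and in the last group replicate 1 stood apart from the other arrays. The group means were 4.53 ± 0.12 for DMSO, 8.95 ± 0.66 for P/I, 4.56 ± 0.09 for CHX and 5.42 ± 1.11 for CHX with P/I (SD, n = 3). Those without P/I were under the array medians of 5.74 to 5.92, so the fold of the rise starts from a low reading.
The rise with P/I was 4.43 on the log2 scale (SE 0.44, adjusted p = 3.88e-05 from limma), the 8th largest of the 23410 probe sets. With CHX the stimulated level was 11.5-fold lower, a log2 difference of -3.53 (adjusted p = 0.000144), which was the 19th largest decrease. In CHX-treated cells P/I gave a difference of 0.86 with a 95% interval of -0.11 to 1.83 (adjusted p = 0.242), and 0.22 (adjusted p = 0.705) without replicate 1 of the CHX-treated P/I-stimulated cells. The P/I effect with CHX was smaller than that with DMSO by a tested log2 difference of -3.57 (SE 0.63, adjusted p = 0.00406). In order of level, DMSO, CHX and CHX with P/I were neighbours that no test separated, and P/I alone lay above them.

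Irf8, which directs the formation of dendritic cells and monocytes and also acts in B and T cells, had a smaller response of the same shape. Its log2 values were 6.0, 6.25 and 6.37 in DMSO-treated cells and 7.82, 6.83 and 7.44 with P/I. In CHX-treated cells they were 6.12, 6.60 and 6.47, and with CHX and P/I 5.96, 5.87 and 6.05. The P/I-stimulated arrays were above all others, and those with CHX and P/I were below every CHX-treated array and overlapped the DMSO-treated ones.
P/I raised Irf8 by 1.16 (SE 0.21, adjusted p = 0.0028 from limma), and CHX made the stimulated level 2.65-fold lower (log2 difference -1.40, adjusted p = 0.000512). In CHX-treated cells the P/I difference was -0.44 with an interval of -0.90 to 0.02 and was not called (adjusted p = 0.209). It passed the threshold when the spread was estimated without P/I-stimulated replicate 1 (adjusted p = 0.0998) or replicate 2 (adjusted p = 0.0670). The difference between the P/I effects with and without CHX was -1.59 (SE 0.30, adjusted p = 0.0057).
By the study's grouping, a gene that rises with P/I and is lower when CHX is added is a secondary response gene, one that needs new protein. Irf4 and Irf8 met that definition, and Irf3 met the definition of a primary response gene, which rises with P/I and is not lowered by CHX.

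Irf1, the interferon γ-induced activator, reached its highest level with CHX and P/I together. The log2 values were 6.88, 7.08 and 7.06 in DMSO-treated cells, 8.03, 7.15 and 7.48 with P/I, 7.37, 7.68 and 7.94 with CHX and 9.59, 9.32 and 9.73 with both. The 3 arrays with both stood more than a log2 unit above every other array. The P/I-stimulated and the CHX-treated arrays overlapped each other, and both lay above the DMSO-treated ones.
CHX raised the P/I-stimulated level of Irf1 3.99-fold (log2 difference 1.99, adjusted p = 3.22e-05 from limma), and P/I raised the level in CHX-treated cells by 1.89 (adjusted p = 6.82e-05). In DMSO-treated cells the P/I difference was 0.55 (SE 0.20, adjusted p = 0.113), which missed the threshold although the groups did not overlap. Without P/I-stimulated replicate 2, the lowest of its group, it was 0.75 (adjusted p = 0.0277), and without P/I-stimulated replicate 1, the highest, it was 0.31 (adjusted p = 0.318). Of the 12 omissions of a single array, 2 brought it under the threshold, the other being that of CHX-treated replicate 1 (adjusted p = 0.0940). The P/I effect was larger with CHX by 1.34 (SE 0.29, adjusted p = 0.0122).
A second Irf1 probe set, matched to a single transcript record, lay between 5.36 and 5.67 on all 12 arrays and was called in no comparison, so the values above are those of the brighter probe set.

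Irf9, which acts in type I interferon signalling, followed the same course as Irf1. Its log2 values were 5.87, 6.19 and 6.17 in DMSO-treated cells, 6.57, 6.32 and 6.47 with P/I, 6.19, 6.64 and 6.82 with CHX and 8.31, 8.33 and 9.0 with both. The arrays with both were again the highest, and those with P/I alone overlapped those with CHX alone. CHX raised the stimulated level 4.27-fold (log2 difference 2.09, adjusted p = 1.75e-05 from limma), the largest difference of the 4 members that were higher.
P/I raised Irf9 by 2.0 in CHX-treated cells (adjusted p = 3.54e-05), against a difference of 0.38 with an interval of -0.05 to 0.81 in DMSO-treated cells (adjusted p = 0.289). The tested difference between these P/I effects was 1.62 (SE 0.28, adjusted p = 0.0035). Over the 12 arrays Irf1 and Irf9 correlated at r = 0.98, which describes arrays that share their treatments.

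Irf2, the competitor of Irf1, rose with P/I in CHX-treated cells. Its log2 values were 7.32, 7.10 and 7.22 with DMSO, 7.81, 7.35 and 7.48 with P/I, 7.11, 7.11 and 7.38 with CHX and 7.92, 8.13 and 8.68 with both. The arrays with both were above all others, the lowest of them by a small margin over P/I-stimulated replicate 1. The P/I rise in CHX-treated cells was 2.06-fold (log2 difference 1.04, adjusted p = 0.00162 from limma), and CHX raised the stimulated level 1.62-fold (0.69, SE 0.18, adjusted p = 0.0157).
In DMSO-treated cells the P/I difference of Irf2 was 0.33 with an interval of -0.06 to 0.73 (adjusted p = 0.303). The difference between the P/I effects was 0.71 (adjusted p = 0.115). It was called after quantile normalization of probe sets (0.79, adjusted p = 0.0375) and with a filter at log2 5 (adjusted p = 0.0932). A term for replicate number also brought it under the threshold (adjusted p = 0.0543). It was 0.84 (adjusted p = 0.0593) without P/I-stimulated replicate 1 and 0.87 (adjusted p = 0.0401) without replicate 1 of the cells given both, the 2 of 12 omissions under the threshold, and 0.49 without replicate 3 of the cells given both.

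Irf3, the sensor-activated member, rose with P/I both without and with CHX. Its log2 values were 7.98, 7.19 and 7.22 with DMSO, 8.71, 8.03 and 8.42 with P/I, 8.13, 7.75 and 7.43 with CHX and 9.54, 9.22 and 9.63 with both. The P/I-stimulated arrays were above the DMSO-treated ones, the DMSO-treated and CHX-treated arrays overlapped, and those with both were highest. The rise with P/I was 0.92 (SE 0.24, adjusted p = 0.0243 from limma) in DMSO-treated cells and 1.69, or 3.23-fold, in CHX-treated cells (adjusted p = 0.000508).
CHX raised the stimulated level of Irf3 2.11-fold (1.08, adjusted p = 0.00697). The difference between the P/I effects was 0.77 with an interval of 0.02 to 1.52 and was not called (adjusted p = 0.217). With a term for replicate number it was called (adjusted p = 0.0312). The call of the rise in DMSO-treated cells was lost without DMSO-treated replicate 2 (0.79, adjusted p = 0.109) or replicate 3 (0.80, adjusted p = 0.102).

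Irf5, the other sensor-activated member, was called in 0 of the 5 comparisons. Its group means of 5.68 to 5.81 lay near the array medians of 5.74 to 5.92, and whether the gene is expressed in these cells was not tested. Its log2 values were 5.70, 5.97 and 5.61 with DMSO, 5.46, 5.63 and 5.94 with P/I, 5.56, 6.06 and 5.81 with CHX and 5.65, 5.86 and 5.76 with both, so the 4 groups overlapped. The P/I difference was -0.08 with an interval of -0.41 to 0.25 (adjusted p = 0.823 from limma), and the CHX difference during P/I was 0.08 with an interval of -0.25 to 0.41 (adjusted p = 0.821).

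CHX without stimulation was followed by 0 called changes among the members, where 0.0299% of all probe sets were higher and 0% lower by limma. At an unadjusted p under 0.05, Irf1 and Irf9 were higher, 2 of the 7, and the methods' test with unmoderated variances called 0. The 7 probe sets called higher over the whole table were an unstable count, at 43 without CHX-treated replicate 1, 28 without P/I-stimulated replicate 1 and 0 without CHX-treated replicate 2. The difference of Irf1 was 0.66 with an interval of 0.21 to 1.10 (adjusted p = 0.558), and that of Irf9 was 0.47 (adjusted p = 0.710). The other members lay between -0.01 for Irf2 and 0.31 for Irf3. The median of the members was 0.19, against -0.02 for all probe sets.

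In CHX-treated cells P/I raised 4 members, Irf1, Irf2, Irf3 and Irf9, and lowered 0, where 21.8% of all probe sets were called, 10.2% higher and 11.6% lower. The count was the same with the methods' test with unmoderated variances and at an unadjusted p under 0.05. The test of the difference between the P/I effects with and without CHX called Irf1 and Irf9 higher and Irf4 and Irf8 lower, against 13.7% of all probe sets called, 6.04% higher and 7.62% lower. Centring the arrays on the tested probe sets changed that split over all probe sets from 1413 higher and 1783 lower to 862 and 2070, and the same number of members, 2 in each direction, was then called. The 3 arrays per group limit the precision of each of these differences. Each of them also uses the CHX-treated cells without P/I, whose full time in CHX is not given. A longer exposure to CHX and stimulation cannot be told apart in them.

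**Figure D2:**
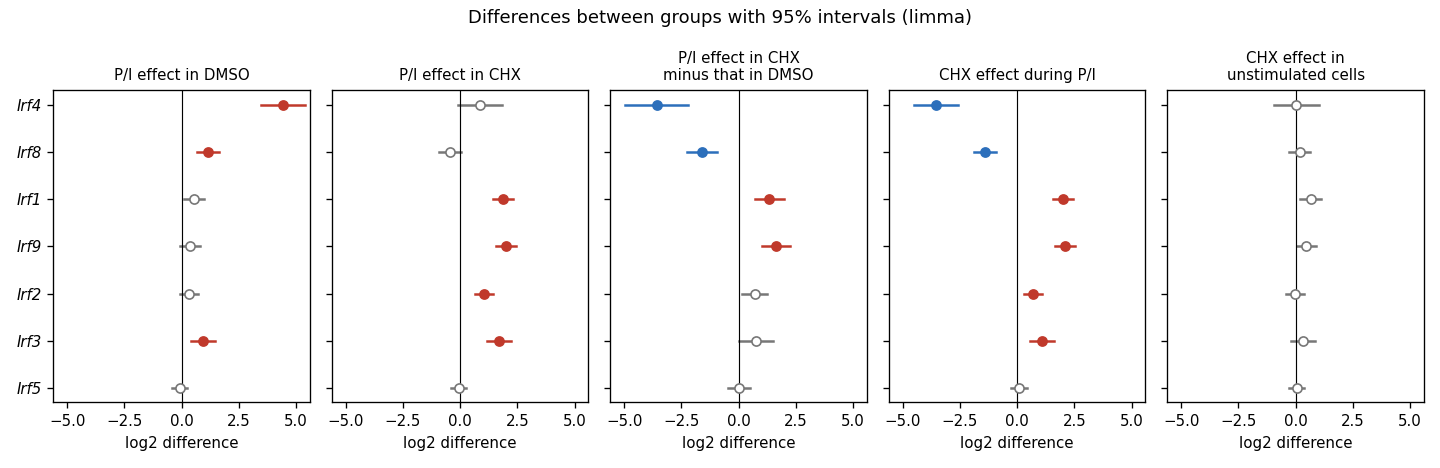
Log2 difference (x axis) of each member (y axis) in the 5 comparisons, with 95% intervals from limma; filled red points were called higher, filled blue points called lower and open points were not called. Irf4 and Irf8 change sides between the P/I effect in DMSO and the CHX effect during P/I, while the other called members lie to the right in both CHX panels with P/I.

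**Figure D3:**
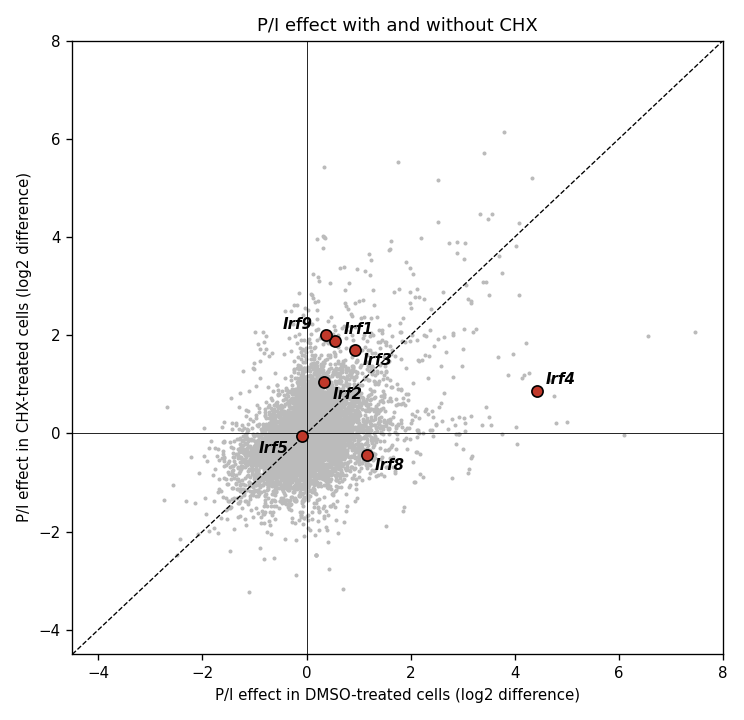
Log2 P/I effect in DMSO-treated cells (x axis) and in CHX-treated cells (y axis) for all 23410 probe sets in grey and the 7 members in red; the dashed line marks equal effects. Irf4 lies far below the line at 4.43 and 0.86, Irf8 below it at 1.16 and -0.44, and Irf1, Irf9, Irf2 and Irf3 above it.

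For each member called in a comparison, the genes with the most similar values over the 12 arrays were sought among 1757 probe sets that varied by an SD of at least 0.5. The correlations describe arrays that share 4 treatments and carry no test. The closest to Irf4 were Il4 (r = 0.998), the helper T cell cytokine, Il2 (0.990), the T cell growth factor, and Prkch (0.983), a protein kinase C. Il4 read 10.25, 8.64 and 9.53 with P/I and 6.75, 4.85 and 5.12 with CHX and P/I, and Il2 read 12.36, 11.56 and 12.13 against 8.63, 5.45 and 6.03. In each of these genes replicate 2 was the lowest of the P/I-stimulated arrays and replicate 1 the highest of those with both, as in Irf4.

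**Figure D4:**
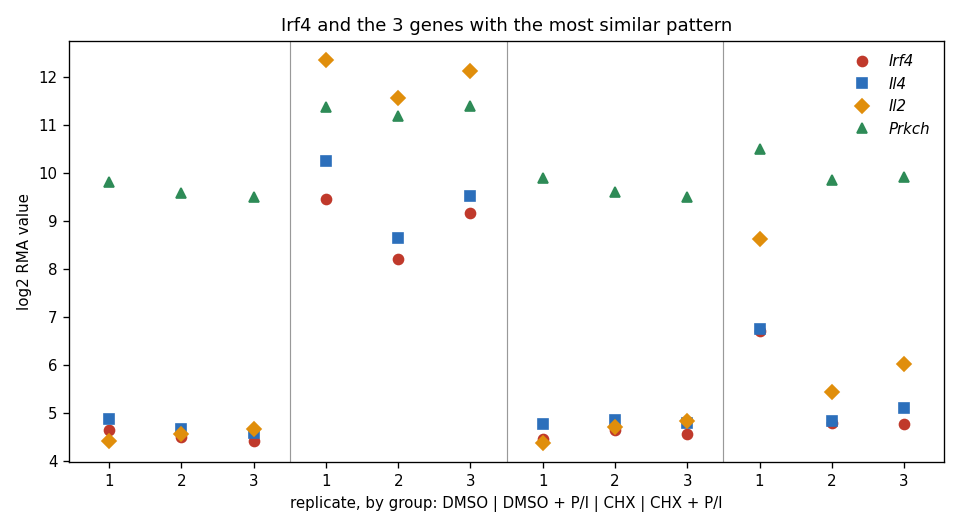
Log2 RMA value (y axis) of Irf4 and of the genes with the most similar values, Il4, Il2 and Prkch, on each of the 12 arrays (x axis, replicates 1 to 3 in each group). All 4 genes are highest with P/I alone, and with CHX and P/I replicate 1 stands above replicates 2 and 3.

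Closest to Irf8 were Ciart (0.981), a circadian repressor, the chloride transporter Clcn5 (0.967) and Rab11fip5 (0.965), a vesicle transport protein. Clcn5 read 8.90, 8.25 and 8.89 with P/I and 7.51, 7.30 and 7.33 with CHX and P/I, and was like Irf8 in that P/I-stimulated replicate 2 was the lowest of its group. Closest to Irf1 were the zinc finger gene Zfp719 (0.992), Rfx5 (0.985), a factor for class II histocompatibility genes, and Rnf31 (0.982), a ubiquitin ligase of NF-κB signalling. Rnf31 read 8.64, 7.89 and 8.05 with P/I and 10.29, 9.87 and 10.50 with CHX and P/I.
Closest to Irf9 were the clock gene Per1 (0.992), the adaptor Traf2 (0.991) and the phosphatase Dusp8 (0.988). Closest to Irf2 were Zfp335 (0.979), Zfp758 (0.974) and Gimap6 (0.966), and closest to Irf3 were Urb1 (0.977), Trav19 (0.971) and Tfcp2 (0.971). Between members, Irf4 and Irf8 correlated at 0.82, Irf2 and Irf9 at 0.90, and Irf1 and Irf4 at -0.01.

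Among 15 partners and cofactors of IRFs, 5 rose with P/I, 1 fell and 9 were not called. For this and the following lists, the shares over all probe sets were 9.05% higher and 8.42% lower with P/I, and 13.2% and 12% with CHX during P/I, the latter pair moving with the scaling as given above. Spib, the Ets factor that pairs with Irf4 and Irf8, rose by 1.44 (SE 0.09, adjusted p = 7.69e-07 from limma) from 4.97 ± 0.04 to 6.41 ± 0.14 (SD, n = 3). With CHX and P/I it stood at 5.14 ± 0.06, lower by a log2 difference of -1.27, and the difference between its P/I effects was -1.28 (adjusted p = 6.11e-05), of the same sign as those of Irf4 and Irf8. Batf, the AP-1 partner of Irf4 in T cells, rose by 1.29 (SE 0.36, adjusted p = 0.0326) and Def6, an Irf4-binding protein, by 0.36 (adjusted p = 0.0360). Irf2bpl, a relative of the Irf2-binding corepressors, fell by 1.2 with P/I (adjusted p = 0.000878).
During P/I, CHX raised 4 of the partners and lowered 3. Those raised included the acetyltransferase Crebbp (1.08, adjusted p = 0.000717), Swap70, the relative of Def6 (1.02, adjusted p = 0.00293), and Irf2bpl (0.94, adjusted p = 0.00293). The median of the list was -0.07 with P/I and -0.13 with CHX during P/I, near the -0.03 and 0.01 of all probe sets.

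Of 10 NF-κB and NFAT regulators that act before Irf4 and Irf1 in antigen receptor signalling, 5 rose with P/I and 2 fell. The NF-κB subunit Rel rose by 3.56 (adjusted p = 1.3e-07 from limma), Nfatc1 by 2.39 (adjusted p = 6.75e-06), and Bcl10 and Malt1, which link protein kinase C to NF-κB, by 1.35 and 1.60. CHX during P/I raised 5 and lowered 3. Rel was higher again by 1.08, Bcl10 by 1.10 and Rela by 0.96, and the calcineurin subunit Ppp3ca fell by 1.03. Unlike that of Irf4, the stimulated level of Rel was thus raised and not lowered by CHX. The means of Malt1 went the other way, at 9.88 ± 0.19 with P/I and 8.93 ± 0.08 with both (SD, n = 3). Whether any of these regulators acts on Irf4 in these cells was not tested. The list's median was 0.61 with P/I, against -0.03 for all probe sets.

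Among 11 helper T cell genes linked to Irf4, 5 rose with P/I and 0 fell by limma, and at an unadjusted p under 0.05 it was 7 and 0. Most had DMSO means under the array medians of 5.74 to 5.92, among them Il4 (4.71), Il21 (4.35) and Ctla4 (4.85). Only Gata3 (10.65) and Bcl6 (8.45) stood above. A fall could hardly be seen in genes that low, so the 0 says little. The rises were 4.76 for Il4, 2.24 for Il5, 1.58 for the suppressive cytokine Il10 and 0.60 for the inhibitory receptor Ctla4. Their adjusted p lay between 2.52e-05 and 0.0203. Il5 stood at 4.52 ± 0.13 with DMSO, 6.76 ± 0.90 with P/I and 4.53 ± 0.09 with CHX and P/I, and Il10 at 4.48 ± 0.10, 6.06 ± 0.49 and 4.59 ± 0.08 (SD, n = 3).
CHX during P/I lowered 4 of these genes, among them Il4 (-3.90), Il5 (-2.24) and Il10 (-1.48), and raised 1, the repressor Bcl6 (1.55, adjusted p = 0.0135). The P/I effect was smaller with CHX for 4 of the 11 and larger for 0, where an unadjusted p under 0.05 gave 5 and 1. Over all probe sets the difference between the P/I effects was called lower for 7.62% and higher for 6.04%. The list's median was 0.60 with P/I and -0.34 with CHX during P/I. Whether Irf4 acts on these genes in these cells was not tested.

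Of 16 sensors, adaptors and kinases upstream of Irf3 and Irf5, 4 rose and 3 fell with P/I. Tank, a scaffold of the kinase Tbk1, rose by 1.27 (adjusted p = 0.000213 from limma) and the Toll-like receptor adaptor Ticam1 by 1.00 (adjusted p = 0.00137). The DNA-signalling adaptor Sting1 fell by 1.29 (adjusted p = 0.000657) and the RNA sensor Ddx58 by 0.63 (adjusted p = 0.0203). With CHX during P/I, 3 were raised and 2 lowered, Sting1 being higher by 2.04, Ddx58 by 1.15 and Tbk1, which phosphorylates Irf3, by 1.06, while Ticam1 fell by 1.34. The list's median was -0.07 and 0.13 in these comparisons, against -0.03 and 0.01 for all probe sets.

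In the interferon and JAK-STAT list of 14 genes, 5 rose with P/I and 1 fell. Jak2, a kinase of the interferon γ receptor, rose by 3.16 (adjusted p = 1.43e-07 from limma), from 8.35 ± 0.12 to 11.51 ± 0.34, and stood at 7.88 ± 0.17 with CHX and P/I (SD, n = 3). The difference between its P/I effects was -3.67 (adjusted p = 2.3e-06), the same sign as that of Irf4 and Irf8. Ifngr1, the receptor's ligand-binding chain, fell by 2.06 with P/I, while Ifng rose by 0.74 (adjusted p = 0.00436) and the type I receptor chain Ifnar1 by 0.55 (adjusted p = 0.0244).
CHX during P/I raised 8 of the 14 and lowered 1, Jak2, where 13.2% of all probe sets were higher and 12% lower, and the list median was 0.61 against 0.01 for all probe sets. The feedback inhibitor Socs3 was higher by 2.31 (adjusted p = 2.11e-05), Ifngr1 by 1.46 and Ifnar1 by 1.26. Ifnb1, the type I interferon that Irf3 can switch on, had group means of 4.71 to 4.92. Ifng, which can induce Irf1, stood at 5.67 ± 0.09 with P/I and 5.83 ± 0.34 with CHX and P/I.

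Irf9 is known to carry the induction of many antiviral genes. Of 20 antiviral interferon-stimulated genes measured, 0 rose with P/I in DMSO-treated cells and 3 fell by limma, and at an unadjusted p under 0.05 it was 0 and 5. Over all probe sets 9.05% were called higher and 8.42% lower in that comparison. Ifit1, for one, had group means of 4.48 to 4.60, under the array medians of 5.74 to 5.92. The group means of Mx1, Oas2 and Cmpk2, among others, were under those medians too. The ubiquitin ligase pair Parp9 and Dtx3l fell by 0.93 and 1.12 (adjusted p = 0.000543 and 0.000886) and Trim25 fell by 0.60. These 3 stood above the array medians with DMSO, at 7.17, 7.37 and 8.04. In CHX-treated cells 0 rose and 5 fell with P/I (0 and 6 at the unadjusted p), where 10.2% of all probe sets were higher and 11.6% lower. The rise of Irf9 mRNA with P/I was called only in these cells, where CHX inhibits the synthesis of protein. The counts therefore do not test what more Irf9 protein would do to these genes. During P/I, CHX raised 1, Parp9 (0.86, adjusted p = 0.00059), and lowered Ifit2 by a log2 difference of -0.44 and Trim25 by -0.39. The list's median was -0.08 with P/I and 0.01 with CHX during P/I.

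Of 16 genes of class I antigen presentation and others linked to Irf1, 2 rose and 4 fell with P/I. The checkpoint ligand Cd274 rose by 3.39 (adjusted p = 1.3e-08 from limma). The peptide transporter genes Tap1 and Tap2 fell by 1.58 and 1.00, and the immunoproteasome subunit Psmb9 fell by 0.72. Tap1 stood at 9.18 ± 0.20 with DMSO, 7.59 ± 0.26 with P/I and 9.46 ± 0.18 with both (SD, n = 3). During P/I, CHX raised 6 of the list and lowered 1, Il15ra (-0.78, adjusted p = 0.000123), with Tap1 higher by 1.87, Psmb9 by 0.47 and Tapbp by 0.28. The list's median was 0.28 in that comparison. Whether Irf1 acts on these genes in these cells was not tested, and CHX inhibits the synthesis of Irf1 protein. The lists were described by counts and medians only, and no list was tested as a set.

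**Figure D5:**
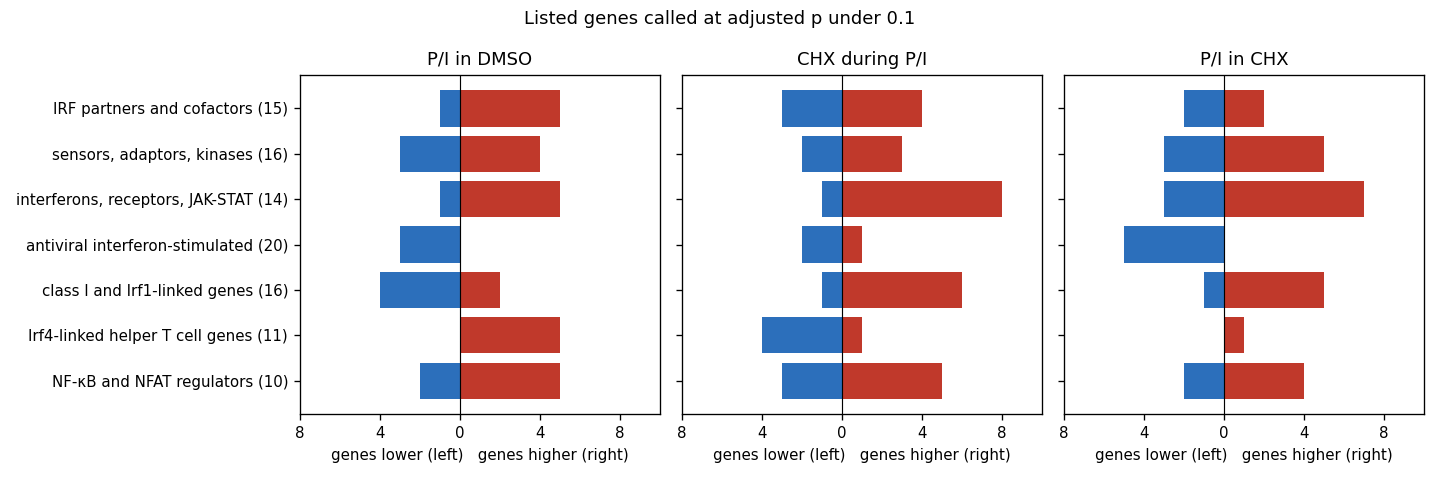
Number of genes called higher (right, red) and lower (left, blue) at an adjusted p under 0.1 in each list (y axis, genes measured in brackets) for P/I in DMSO-treated cells, CHX during P/I and P/I in CHX-treated cells. The bars for the interferon and JAK-STAT list reach 8 genes higher with CHX during P/I, and those for the antiviral list show 0 genes higher with P/I.

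The labelled cell type was borne out by its markers. The 7 T cell markers measured had mean log2 values of 8.32 to 12.4, and their summed level ranged over 13.6 to 13.8 with DMSO, 13.5 to 13.7 with P/I, 13.6 to 13.7 with CHX and 13.5 to 13.6 with both. The 6 B cell markers had means of 4.22 to 7.09 and the 10 myeloid and dendritic cell markers 4.30 to 5.57. The means of all 10 myeloid and dendritic cell markers and of 5 B cell markers were under the median of the table, that of Cd79b was not. With P/I, 1 B cell marker rose, Blk by 0.80, and 1 fell, Cd79b by 0.94 (9.05% and 8.42% of all probe sets). During P/I, CHX lowered Blk by 0.87 and raised Cd79b by 0.54. Their part in the levels of Irf4 and Irf8 was not tested. The summed myeloid level was 8.20 to 8.30 with DMSO and 8.15 to 8.24 with P/I, and its part in the level of Irf8 was not tested. It was 8.13 to 8.18 with CHX and 8.30 to 8.80 with both. During P/I, CHX raised 2 of these 10 markers and lowered 0, and 8 were not called, where 13.2% of all probe sets were higher and 12% lower. The 2 were the Fc receptor Fcgr1 (1.33, adjusted p = 0.00782 from limma) and Adgre1 (0.25, adjusted p = 0.0944). The median of the 10 was 0.02, against 0.01 for all probe sets. The part of the summed myeloid level in the levels of Irf1, Irf2, Irf3 and Irf9, which were highest with both, was not tested. Correlations between arrays of a group were 0.983 to 0.994 over all 35399 probe sets.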

How the data were processed

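RNA of 12 cultures was hybridised to Mouse Gene 1.0ST arrays. The deposited values are log2 robust multichip average (RMA) values that the authors made in Partek, with background correction adjusted for probe sequence and quantile normalization. The version of the software is not given in the sources used here. Quantile normalization forces a common distribution on the arrays, so differences are relative to the other probe sets. Differences between low values can be compressed. Of 35399 probe sets, the 23410 with at least 1 gene symbol were tested, and genes were named only from the 21789 with 1 symbol. A gene with several probe sets was represented by the one with the highest mean.

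In R 4.3.3, limma 3.58.1 estimated a mean for each of the 4 groups from all 12 arrays, with 8 residual degrees of freedom, and p-values were adjusted by Benjamini-Hochberg over the tested probe sets. A probe set was called at an adjusted p under 0.1, the level used in the study's methods. Groups came from the labels. Named list genes were the up to 4 with the smallest p in the P/I and in the CHX during P/I comparisons, and the similar genes were the 3 with the highest r. Other genes named for their level alone were chosen after their values were seen. The members and lists were chosen with earlier results of these data known. Some list genes were not analysed here. Promoter windows were taken from RefSeq annotation of GRCm38.p6, in which the 7 members had 10 start sites. The fit was tested on simulated data.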

Additional observations from a re-analysis of the deposited data

Results flagged for a closer look

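The effect of P/I differed between CHX-treated and DMSO-treated cells for 4 of the 7 members by the interaction test of limma. That test uses the CHX-treated cells without P/I, whose full time in CHX is not given. The P/I effect was larger with CHX by 1.34 on the log2 scale for Irf1 (adjusted p = 0.0122) and by 1.62 for Irf9 (adjusted p = 0.0035). With CHX it was smaller by a log2 difference of -3.57 for Irf4 (adjusted p = 0.00406) and of -1.59 for Irf8 (adjusted p = 0.0057). In CHX-treated P/I-stimulated cells, replicate 1 read higher than the other replicates of its group in Irf4, Il4, Il2 and Prkch.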

How the results depend on the processing

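The calls of Irf4 and Irf8 with P/I, and of Irf4, Irf8, Irf1 and Irf9 with CHX during P/I, kept direction and threshold under every alternative run on the chosen probe sets: a replicate block, other array scalings, a filter at log2 5, adjustment over all probe sets, a threshold of 0.05, a variance trend, the methods' test with unmoderated variances and the omission of each array or each replicate number. Centring on the medians of all probe sets was added after seeing the data. With the replicate block, 4 members in place of 2 had a larger P/I effect with CHX (Irf2, adjusted p = 0.0543, and Irf3, adjusted p = 0.0312, joined), Irf1 was called with P/I (adjusted p = 0.0678), and 3034 probe sets were higher and 3026 lower with P/I. Deviations from the group means correlated at 0.064 to 0.750 between arrays of the same number, over 0.1 in 17 of 18 pairs, and at -0.581 to 0.309 between arrays of different number, over 0.1 in 9 of 36. Arrays of the same number were thus mostly more alike than arrays of different number. The main fit left the numbers unpaired because 1 pair was under 0.1 and the labels name no shared batch. With CHX alone the block gave 115 probe sets higher and 4 lower in place of 7 and 0. Quantile normalization of probe sets and the log2 5 filter each also called Irf1 with P/I and a larger P/I effect with CHX for Irf2.

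Without replicate 1 of every group, 662 probe sets were higher and 89 lower with CHX alone, 4 members had a larger P/I effect with CHX, 1 (Irf1) was higher with CHX alone and 1 (Irf8) fell with P/I in CHX-treated cells. Without replicate 2 of every group, 1 member had a larger P/I effect with CHX, and Irf2 lost its CHX call during P/I (0.65, adjusted p = 0.177). Without replicate 3, CHX raised 2 members during P/I, and the P/I effect with CHX was called larger for 1 and smaller for 0, with differences of -3.09 for Irf4 and -1.64 for Irf8. The cause was not tested, other than that fewer arrays entered. Irf3 lost its P/I call without replicate 2 (0.96, adjusted p = 0.132) or 3 (0.79, adjusted p = 0.293) of every group, with differences near the 0.92 of all arrays. Omission of single arrays gave 0 to 1 members lower with P/I in CHX-treated cells.

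Signs turned only in values that were not called, apart from the second Irf1 probe set, which read -0.034 with CHX during P/I, -0.028 with CHX alone and -0.0057 for the interaction. Irf2 with CHX alone read 0.037 and 0.054 after centring on the tested and on all probe sets, and 0.086 without replicate 1. Irf5 read -0.072 (centred), -0.074 (quantile normalized), -0.12 and -0.032 (without replicates 1 and 2) for the interaction, 0.049 with P/I and 0.017 with P/I in CHX without replicate 2, and -0.020 with CHX alone without replicate 3. Irf4 with CHX alone read -0.027 and -0.0098 without replicates 2 and 3. Omission of single arrays gave ranges of -0.10 to 0.040 for Irf2 and -0.013 to 0.10 for Irf4 with CHX alone. For Irf5 they were -0.21 to 0.025 with P/I, -0.025 to 0.21 with CHX during P/I, -0.069 to 0.18 with CHX alone, -0.18 to 0.070 with P/I in CHX and -0.099 to 0.16 for the interaction.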

Other observations

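Irf7, an interferon-inducible relative of Irf3 that was not among the genes followed, was named after its values were seen. Its log2 values were 5.47, 6.12 and 6.09 in DMSO-treated cells, 5.31, 5.81 and 5.57 with P/I, 5.52, 6.34 and 6.11 with CHX and 6.07, 6.36 and 6.40 with both. CHX raised its level during P/I by 0.71 (adjusted p = 0.0405 from limma), and the P/I difference in DMSO-treated cells was -0.33 (adjusted p = 0.441).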
